A study of Mus musculus with 9 samples.

Results

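The EZH2 peak list held 18730 distinct peaks on chromosomes 1 to 19, X and Y, of 282301 peaks in the 7 lists of the series. All peaks of the list with a distinct chromosome, start and end were taken as members, without regard to their enrichment. The cells were MYCN-driven T cell lymphoma cells from the thymus of C57BL/6J mice, and chromatin was profiled by ChIPmentation, in which a transposase adds sequencing adapters to chromatin held on the antibody. Antibodies against EZH2 (a rabbit monoclonal, clone D2C9), SUZ12, H3K27me3, N-MYC, p300, H3K27ac and H3K4me3 gave 1 library and 1 peak list each, and all 7 shared the same strain, tissue and tumour model. The 9 samples also included 2 input libraries, which are not analysed here. The labels do not state which promoter or cell type drives MYCN, whether the libraries came from a single tumour, or whether tumours were pooled.

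EZH2 is the catalytic subunit of Polycomb repressive complex 2 (PRC2), which methylates lysine 27 of histone H3; SUZ12 is a core subunit of the same complex, and H3K27me3 is its product. In many tissues PRC2 covers CpG-rich promoters of genes for developmental regulators. N-MYC is a transcription factor that binds E-boxes as a dimer with MAX, p300 acetylates histones, and H3K27ac and H3K4me3 mark active regulatory regions and active promoters. The series title describes EZH2 as hijacked into gene activation in this disease, and the comparisons below ask which genes and genomic compartments held its peaks.

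Each antibody had 1 library, so differences could not be set against replicates and p-values were not computed. Intervals are 95% Wilson intervals for shares and 95% Poisson intervals for counts, and both cover counting error only, with peaks or genes taken as independent. The depth behind each list is unknown, so a missing peak means only that none was called. The other lists ranged from 9798 peaks (N-MYC) to 123056 (H3K27me3), and shares taken from lists of such unequal length depend on that length. Of 15 T-cell marker genes 13 had an H3K4me3 peak at the start, among them Cd3e, Lck, Thy1 and Bcl11b, and Cd8a and Cd8b1 had none. H3K4me3 reached 2 of 6 B-cell markers (Cd79a and Cd79b, at fold enrichments of at most 5.75), 1 of 6 myeloid markers (Cebpa) and 1 of 10 epithelial and stromal markers (Epcam, at 19.3). H3K27ac reached 3, 3 and 4 of the same markers, with Spi1 at 19.8. In the longer list of 18 B-cell and myeloid genes H3K4me3 reached 7, with Cebpb at 25.98 the strongest.

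The promoter windows below show the kinds of sequence the EZH2 list held and did not hold, with every CG dinucleotide in capitals. Each runs 5′ to 3′ from 250 bases before to 50 bases after a gene start, taken from RefSeq for GRCm38.p6. Among promoters with strand and sequence in RefSeq, the first 4 were those with the strongest EZH2 peak summit within 1 kb of the start among Hox genes, subunits of Polycomb repressive complex 1 (PRC1), cytosolic ribosomal protein genes and T-cell genes, and the fifth is an olfactory receptor gene without a peak. This choice was made after the values were seen.
Hoxd9 (chr2:74697513-74697812, plus strand): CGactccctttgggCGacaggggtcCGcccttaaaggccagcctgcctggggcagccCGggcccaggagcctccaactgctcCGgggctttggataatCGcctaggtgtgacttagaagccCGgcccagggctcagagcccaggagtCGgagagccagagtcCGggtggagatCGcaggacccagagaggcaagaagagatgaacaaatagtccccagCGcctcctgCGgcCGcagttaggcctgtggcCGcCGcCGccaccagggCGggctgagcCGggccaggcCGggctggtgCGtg
Bmi1 (chr2:18676768-18677067, plus strand): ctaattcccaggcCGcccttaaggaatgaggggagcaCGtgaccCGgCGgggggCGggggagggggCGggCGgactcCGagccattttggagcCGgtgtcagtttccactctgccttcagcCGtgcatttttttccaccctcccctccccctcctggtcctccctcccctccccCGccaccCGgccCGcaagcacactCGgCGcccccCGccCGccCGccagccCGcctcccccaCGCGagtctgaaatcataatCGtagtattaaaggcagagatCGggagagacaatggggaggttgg
Rpl27a (chr7:109518945-109519244, plus strand): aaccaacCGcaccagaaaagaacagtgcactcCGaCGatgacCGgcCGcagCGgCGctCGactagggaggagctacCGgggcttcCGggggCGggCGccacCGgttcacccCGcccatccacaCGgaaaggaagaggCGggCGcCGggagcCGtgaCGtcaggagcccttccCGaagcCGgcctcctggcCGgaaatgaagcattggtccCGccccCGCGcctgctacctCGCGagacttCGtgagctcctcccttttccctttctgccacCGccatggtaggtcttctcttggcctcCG
Bcl11b (chr12:108003365-108003664, minus strand): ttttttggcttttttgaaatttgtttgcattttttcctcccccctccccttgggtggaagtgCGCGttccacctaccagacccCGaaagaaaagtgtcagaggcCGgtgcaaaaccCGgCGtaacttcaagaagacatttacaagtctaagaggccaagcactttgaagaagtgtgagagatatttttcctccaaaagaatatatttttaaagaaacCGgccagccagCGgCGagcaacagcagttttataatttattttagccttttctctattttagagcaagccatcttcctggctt
Olfr1416 (chr1:92480570-92480869, minus strand): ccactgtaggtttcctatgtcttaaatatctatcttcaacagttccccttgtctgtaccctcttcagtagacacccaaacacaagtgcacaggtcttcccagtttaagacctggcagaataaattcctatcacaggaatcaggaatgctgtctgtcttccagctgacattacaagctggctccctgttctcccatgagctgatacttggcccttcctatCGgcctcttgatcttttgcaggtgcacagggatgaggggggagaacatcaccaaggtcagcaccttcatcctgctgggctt

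The windows held 20 CG dinucleotides at Hoxd9, a patterning homeobox gene, 23 at Bmi1, which encodes a PRC1 subunit, and 31 at Rpl27a, a protein of the large ribosomal subunit. Bcl11b, a T-lineage transcription factor, had 9 and the receptor gene Olfr1416 had 1. All 300 bases lay inside an EZH2 peak at Hoxd9, Bmi1 and Bcl11b, whereas at Rpl27a only 95 bases did, because the peak lay on the transcribed side with its summit 596 bp from the start. The fold enrichment, the peak's signal over background as deposited, was 25.5 at Bmi1, 10.8 at both Rpl27a and Bcl11b and 10.2 at Hoxd9.

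EZH2 peaks lay mostly at gene starts, and just inside the transcribed region. A peak was called promoter when its summit lay within 1 kb of the start of a protein-coding gene, body when the summit lay elsewhere in such a gene, and intergenic otherwise. Promoters held 10757 peaks (57.4%, 95% interval 56.7 to 58.1), gene bodies 4191 (22.4%, 21.8 to 23.0) and intergenic sequence 3782 (20.2%, 19.6 to 20.8). The 3 compartments make up 1.98, 36.9 and 61.1% of the annotated span of the chromosomes, so promoters held 28.99 times their share of sequence. The intergenic share was 36.7% when genes without a stranded start were left out, 12.9% when non-coding genes were counted too, and 11.1% when peaks within 3 kb were merged. Promoter peaks were stronger and wider than the rest, with a median fold enrichment of 5.28 and a median width of 633 bp, against 4.36 and 382 bp in gene bodies and 4.36 and 362.5 bp between genes. The promoter share of the EZH2 list was near that of H3K4me3 (60.0%) and p300 (60.6%), below that of N-MYC (69.8%) and above those of SUZ12 (30.4%), H3K27ac (13.9%) and H3K27me3 (4.57%).

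Summits were densest a short way from the start. Within 100 bp of a start lay 1087 summits (5.80%), from 100 to 300 bp 4018 (21.5%) and from 300 to 1000 bp 5652 (30.2%). Per bp of distance these are 10.9, 20.1 and 8.07 summits. Where the strand of the start was known, 6907 of 8799 summits within 1 kb (78.5%, 77.6 to 79.3) fell on the transcribed side. The median position of all 8799, upstream summits included, was 248 bp into the gene. From 1 to 5 kb the share on the transcribed side was 59.1% of 2854. At the far end of the scale, 915 summits (4.89%) lay more than 50 kb from any start.

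**Figure D1:**
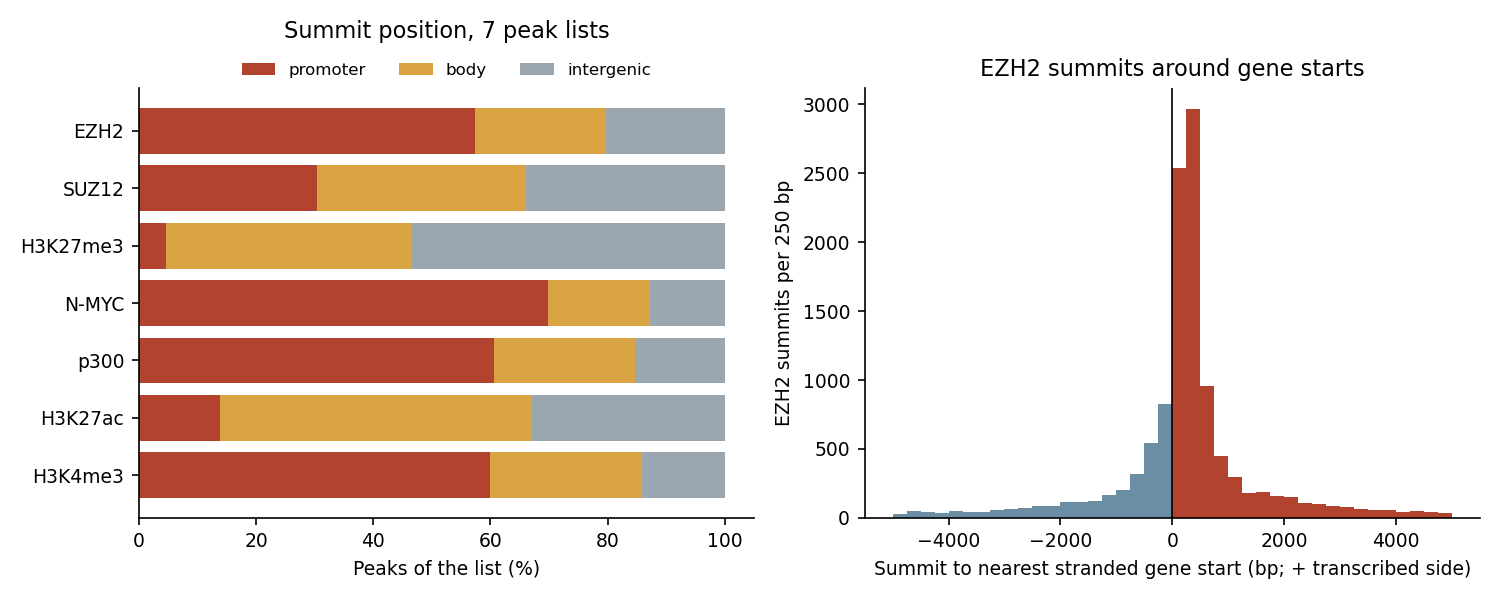
Left, the percentage of peaks in each of the 7 lists whose summit lay at a promoter, in a gene body or between genes; right, the number of EZH2 summits per 250 bp by distance to the nearest stranded gene start, with the transcribed side positive. EZH2 had 57.4% of its peaks at promoters, and the highest bars of the histogram lie in the first 500 bp of the transcribed side.

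At gene level, 10014 of 21887 protein-coding genes had an EZH2 peak within 1 kb of a start, which is 45.8% of the genes tested (45.1 to 46.4). A further 639 genes had a peak in the body only, and 11234 had none. Most of the 10014 genes had 1 peak at the start (7600), 2015 had 2 and 399 had 3 or more. Peaks were shared between neighbours: of 11538 peaks that reached a start, 1365 (11.8%) reached the starts of at least 2 genes, so a gene's peak is not always its own. The median fold enrichment at starts with a peak was 5.85 (quartiles 4.67 and 7.41) and the median width 792 bp (482 and 1325).

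Over all 21887 genes, H3K27ac reached 51.6% of starts, H3K4me3 51.0%, p300 39.3%, N-MYC 32.9%, H3K27me3 25.8% and SUZ12 13.7%. At the 10014 starts with EZH2, H3K4me3 was present at 82.1%, H3K27ac at 77.8%, p300 at 69.3%, N-MYC at 59.7%, H3K27me3 at 31.4% and SUZ12 at 27.8%. At the 11873 starts without EZH2 the same shares were 24.7, 29.6, 13.9, 10.2, 21.0 and 1.72%. All 6 lists were more frequent where EZH2 had a peak, and SUZ12 was almost restricted to those starts, with 204 exceptions.

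Genes with a second Polycomb feature had wider EZH2 peaks. SUZ12 or H3K27me3 was present at 3162 of the 10014 starts. There the widest EZH2 peak at the start had a median width of 1698.5 bp, and the highest fold enrichment had a median of 6.22. At the other 6852 starts the medians were 685 bp and 5.72. A peak of at least 3 kb reached the start at 898 genes of the first group (28.4%) and at 11 of the second (0.161%).

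**Figure D2:**
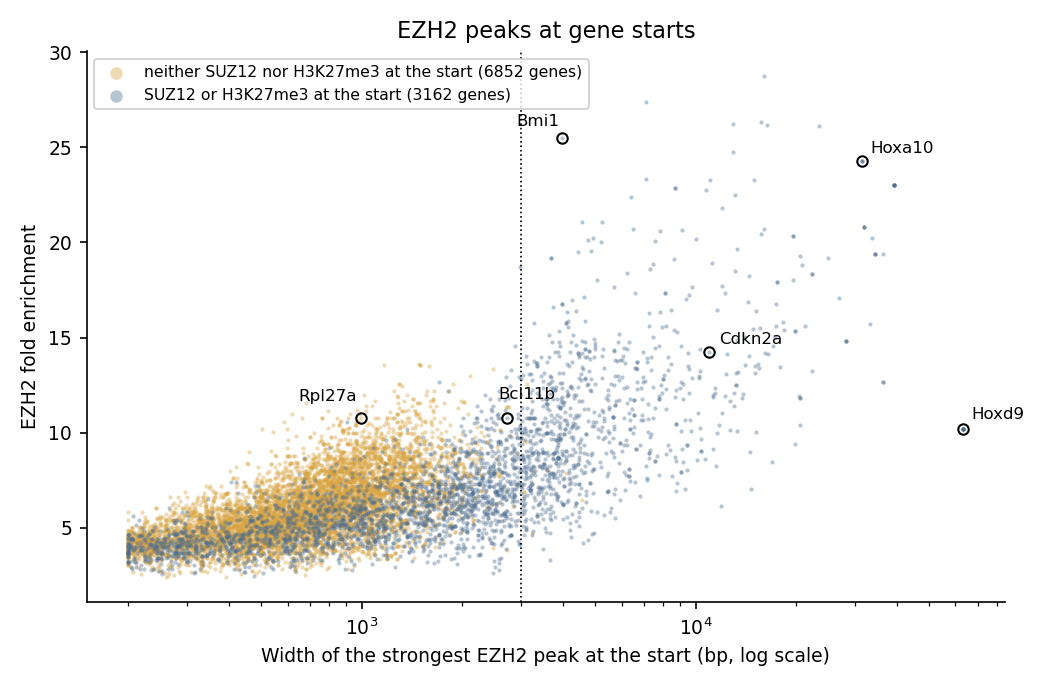
Width of the widest EZH2 peak (log scale) against the highest EZH2 fold enrichment at each of the 10014 gene starts with a peak. The axis label names the strongest peak, but the largest width is plotted. Colour gives whether SUZ12 or H3K27me3 also had a peak there. The dotted line marks 3 kb; nearly all genes to its right had SUZ12 or H3K27me3, and Rpl27a and Bcl11b, both at 10.8, lie to its left.

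Among the 40 gene lists, 3 kinds stood out: families of developmental regulators and families of growth and housekeeping genes, both mostly with EZH2 at the start, and tandem families of receptors, keratins and defensins almost without it. In all, 10 lists of developmental regulators (Hox, Pax, LIM, NK, distal-less, sine oculis and Irx, Sox, T-box, forkhead, GATA and Wnt genes) had EZH2 at 168 of 196 starts (85.7%, 80.1 to 89.9). Another 10 lists of growth genes (cytosolic and mitochondrial ribosomal proteins, translation initiation factors, aminoacyl tRNA synthetases, proteasome, respiratory complex I, the chaperonin CCT, RNA polymerases, splicing factors, and MCM and origin recognition genes) had it at 383 of 444 (86.3%, 82.7 to 89.2). Both shares stand beside 45.8% of all genes. The equality rests on counting any overlap: with a summit required within 1 kb of the start, the shares were 54.6% (107 genes) in the developmental group, 86.04% (382 genes) in the growth group and 43.8% of all genes, as the summit of a wide peak often lay away from the start. The groups differed in the form of the peak: the median width was 7511 bp in the developmental group and 754 bp in the growth group, the median fold enrichment was 10.4 and 6.01, and peaks of at least 3 kb were found at 122 and 2 genes. They also differed in the other lists, as H3K27me3 was present at 170 of 196 developmental starts and 19 of 444 growth starts, SUZ12 at 155 and 5, N-MYC at 18 and 344, and H3K4me3 at 38 and 431. Over all protein-coding genes, EZH2 was called at 8226 of the 11155 starts with H3K4me3, a closer background for the growth group than all genes.

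Among developmental regulators, the Hox genes, which set position along the body axis, had EZH2 at 35 of 39 starts, with a median fold enrichment of 14.8. All 10 Hoxb and all 9 Hoxc genes had a peak, as did 8 of 11 Hoxa and 8 of 9 Hoxd genes; Hoxa4, Hoxa5, Hoxa6 and Hoxd4 had none at the start. Few peaks lay behind these counts, since 1 wide peak can cover several genes: the 35 starts were reached by 25 distinct peaks, and only 10 of the 39 starts (25.6%) had a summit within 1 kb. The same reading gave 7 of 16 T-box genes (43.8%), against 12 by overlap, so Hox genes lay below and T-box genes level with the 43.8% of all genes. Hoxa11 and Hoxa13 shared the strongest Hox peak (fold enrichment 24.3, 31557 bp wide). No Hox start had N-MYC or p300, and 2 had H3K4me3.

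All 12 LIM and all 14 NK homeobox genes carried a peak, and the strongest were at Lhx9 (23.3) and Isl2 (20.2), which specify neurons, and at Nkx2-3 (20.7) and Nkx2-4 (20.1). Of 9 Pax genes 8 had a peak, led by Pax2 (18.8) and Pax6 (15.7), regulators of kidney and eye development; Pax4, a pancreatic islet factor, had none but had H3K27me3 at 10.6. Dlx1 and Dlx2, neighbours that act in forebrain interneurons, shared a peak of 22331 bp at 18.3, and of the 18 Dlx, Irx and sine oculis genes only Irx6 was without EZH2. In these families an EZH2 peak reached the start of nearly every member. With a summit required within 1 kb, the counts were 4 of 9 Pax, 6 of 12 LIM, 10 of 14 NK and 12 of 18 Dlx, Irx and sine oculis genes. The same reading gave 43.8% of all genes, so Pax and LIM genes lay near that share. H3K4me3 was present at few members: none of the Pax and NK genes, 1 LIM gene and 5 of the Dlx, Irx and sine oculis genes.

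Sox, T-box, forkhead and GATA genes were more mixed. Sox21 (26.2) and Tbr1 (26.2), both neural factors, had the strongest peaks of the Sox and T-box families, in which 15 of 19 and 12 of 16 genes had EZH2. Sox5, Sox11, Sox15, Sox30, Tbx6, Tbx10, Tbx19 and Tbx22 had none at the start; of these, Sox30 had H3K4me3 at 17.1 and Sox11 had H3K27me3 at 14.4. Of 44 forkhead genes 34 had a peak, led by Foxd1 (23.3) and Foxl2 (20.5), regulators of kidney stroma and ovary. Gata1, an erythroid factor on the X chromosome, was the GATA gene without EZH2, while Gata6 (14.4) and Gata4 (12.6), factors of heart and endoderm, led the other 5.

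Secreted and surface proteins of development varied more between families. Wnt ligands had EZH2 at 16 of 19 starts, led by Wnt11 (13.97) and Wnt1 (12.9), and their Frizzled receptors at 8 of 10, led by Fzd3 (14.3) and Fzd4 (14.2). Wnt2, Wnt8a and Wnt8b had H3K27me3 without EZH2, and Fzd7 had H3K4me3 (23.4) without EZH2. Potassium channel genes stood near the background at 47 of 94 (50%, 40.1 to 59.9), with Kcnh3 at 18.9 and Kcnk13 at 13.7. Collagen genes were below it at 13 of 44, with Col12a1 at 9.93 and Col2a1 at 9.11, although 32 of the 44 had H3K27me3. Clustered protocadherins, cell adhesion genes in tandem arrays, had EZH2 at 1 of 57 starts (Pcdhgc3, 8.60); for these genes no stranded start was given, and only the gene ends were read.

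Among growth genes, EZH2 peaks were narrow and stood with N-MYC, p300 and H3K4me3. Cytosolic ribosomal proteins had EZH2 at 77 of 85 starts with a median fold enrichment of 7.33, the highest median of the 10 growth lists. Rpl27a, with a peak of 997 bp at 10.8, had N-MYC at 9.34 and H3K4me3 at 43.9 and neither SUZ12 nor H3K27me3. Mitochondrial ribosomal proteins had 66 of 78 at a lower median of 5.02, led by Mrps30 (8.80) and Mrpl48 (8.41). Translation initiation factors had 47 of 56, and their strongest genes, Eif5a (13.6) and Eif4a1 (11.4), had N-MYC at 11.6 and 15.9 and no SUZ12 or H3K27me3.

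The other growth lists looked alike. All 8 CCT chaperonin subunits, which fold actin and tubulin, had a peak, with Cct8 at 9.69 and Cct7 at 7.69. Splicing factors had 36 of 39, led by Srsf1 and Srsf6 (both 10.2), and the proteasome, which degrades tagged proteins, had 44 of 51, led by Psme3 (9.20) and Psmd6 (9.001). Aminoacyl tRNA synthetases had 30 of 37 (Yars2 8.71, Eprs 8.21) and respiratory complex I had 32 of 40 (Ndufv2 8.01, Ndufs1 7.81).

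RNA polymerase subunits had 23 of 28, led by Polr1d (8.60) and Polr2m (8.42). The 5 without were Polr2a, Polr2h, Polr2k, Polr3b and Polr3g. All 5 had H3K4me3, p300 and H3K27ac peaks, and 4 of them, all but Polr2k, also had N-MYC. MCM and origin recognition genes, which license replication, had 20 of 22, led by Orc6 (7.67) and Cdc45 (7.02); the 2 without, Gins1 and Mcm2, had N-MYC at 7.33 and 6.50. Presence of N-MYC and H3K4me3 at a growth gene was therefore not always accompanied by an EZH2 call.

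Replication-dependent histone genes showed this most clearly. All 63 had H3K4me3 at the start and 60 had N-MYC, and EZH2 was called at 37 (58.7%, 46.4 to 70.04). Their EZH2 peaks were narrow, with a median of 352 bp, and the strongest, shared by the neighbours H2bc6 and H1f4, reached 6.62. The Zfp list, largely KRAB zinc finger genes, was near the background with 193 of 397 (48.6%, 43.7 to 53.5), although 319 had H3K4me3; Zfp503 (16.9) and Zfp618 (13.8) were its strongest members, and both had SUZ12 and H3K27me3.

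Olfactory and vomeronasal receptors, beta-defensins and keratins were nearly empty, and cytochrome P450, interleukin and chemokine genes lay below the 45.8% of all genes. EZH2 was called at 1 of 1110 olfactory receptor genes (Olfr94, 5.60), at 0 of 355 vomeronasal receptors (an upper bound of 1.07%), at 0 of 42 beta-defensins (8.38%) and at 2 of 109 keratin genes, the neighbours Krt8 (8.22) and Krt18 (3.94), which encode partners in simple epithelia. Of 97 cytochrome P450 genes 5 had a peak, led by Cyp24a1 (8.98) and Cyp1b1 (8.09). Interleukins had 4 of 33 (Il17d 6.70, Il11 6.50) and chemokines 9 of 39, with Ccl21b, a ligand for lymphocyte homing, at 10.2 and Ccl25, a thymic chemokine, at 7.15. Ccl25 stood apart from Ccl21b in having N-MYC, p300, H3K27ac and H3K4me3 and neither SUZ12 nor H3K27me3. H3K27me3 without EZH2 was called at 47 of 109 keratin, 17 of 39 chemokine and 13 of 33 interleukin genes, beside 11.4% of all genes. The share was 23.8% for beta-defensins and 20.6% for cytochrome P450 genes. It was below that of all genes for olfactory receptors (89 of 1110, 8.02%) and vomeronasal receptors (2 of 355, 0.563%).

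**Figure D3:**
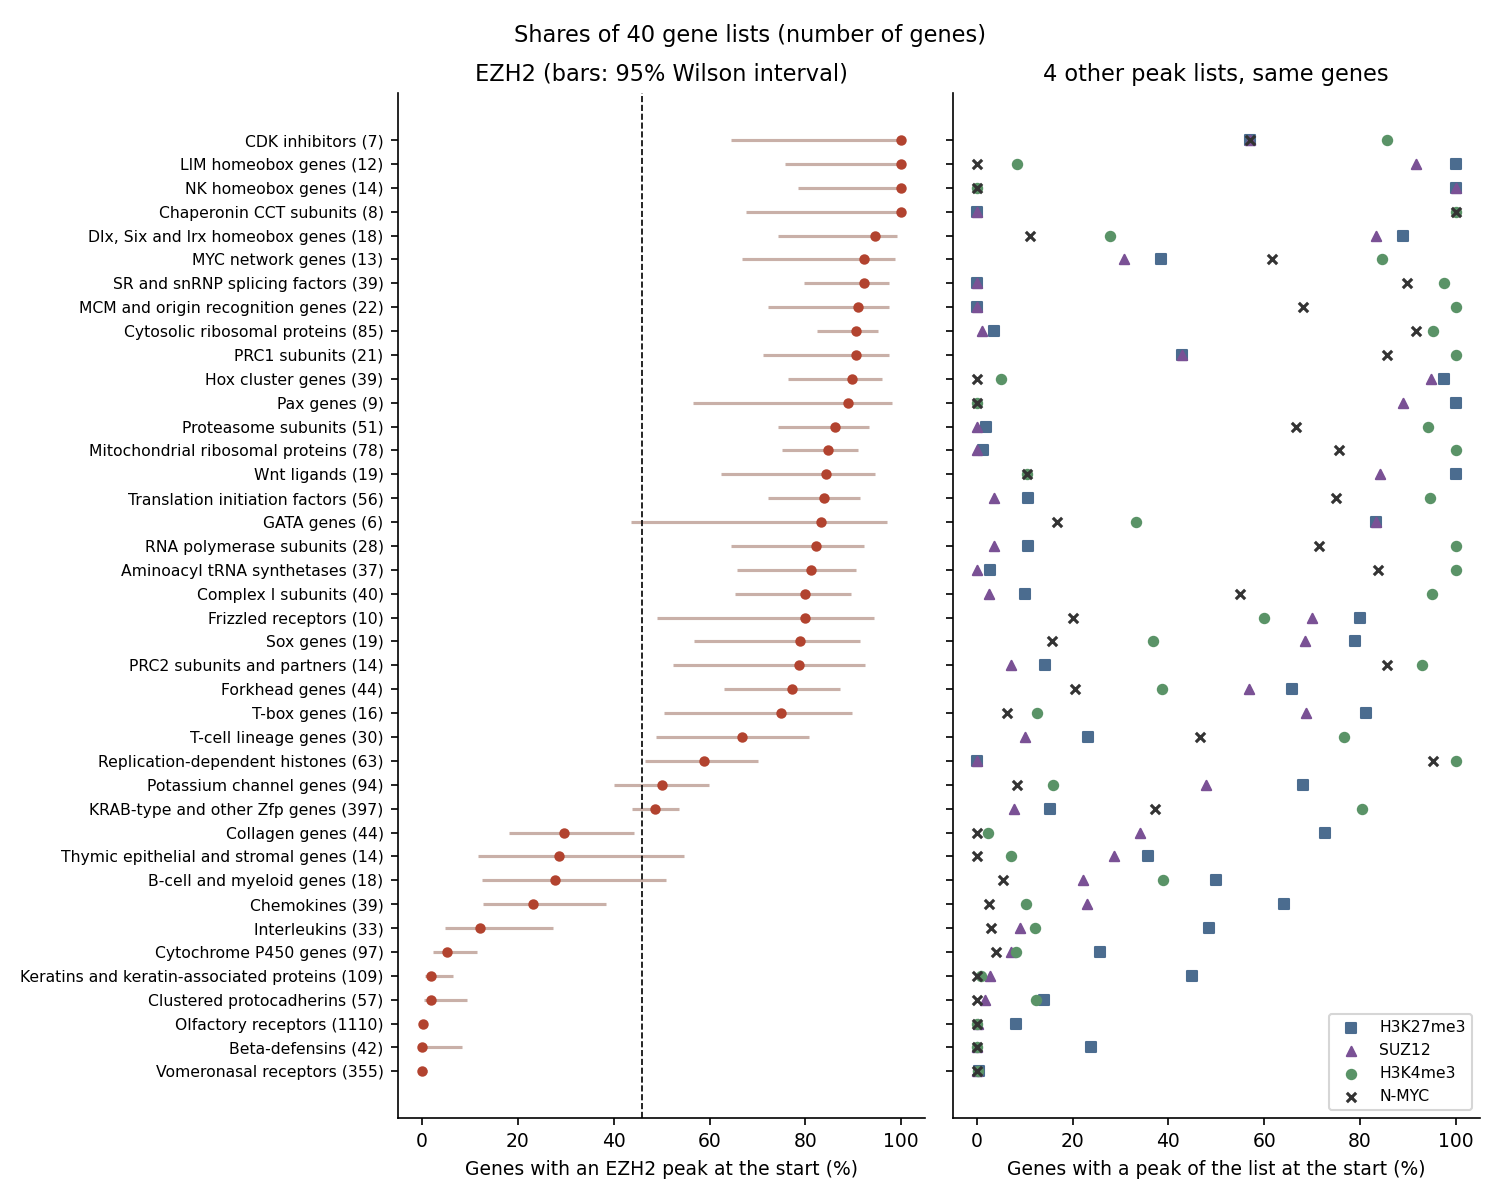
Left, the percentage of genes of each of 40 lists with an EZH2 peak within 1 kb of a start, with 95% Wilson intervals and the 45.8% of all genes as a dashed line; right, the same percentage for 4 other peak lists. Developmental and growth families both lie above the line in the left panel, and they lie apart in the right panel, with H3K27me3 high in the former and N-MYC high in the latter.

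Genes of the Polycomb complexes themselves were among the members. Of 14 PRC2 subunit and partner genes 11 had EZH2 (78.6%, 52.4 to 92.4), beside 45.8% of all genes. H3K4me3 was present at 13 of the 14 starts. Over all genes, EZH2 was called at 8226 of the 11155 starts with H3K4me3, a closer background for this list. In most cases the peak was narrow and stood with N-MYC. Suz12 (8.60), Aebp2 (8.33), Rbbp4 (8.23), Mtf2 (7.61), Ezh2 itself (7.46), Lcor (7.41), Eed (6.78) and Jarid2 (6.42) all had N-MYC, p300, H3K27ac and H3K4me3 peaks and neither SUZ12 nor H3K27me3. Epop was the PRC2 gene with both SUZ12 (4.30) and H3K27me3 (14.96), at an EZH2 enrichment of 4.62. Phf1, Rbbp7 and Ezhip had no EZH2 peak, and Ezhip had no peak of any list at its start.

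PRC1, which binds H3K27me3 and ubiquitinates histone H2A, had EZH2 at 19 of 21 genes, all but Pcgf6 and Bcor. This is 90.5% (71.1 to 97.3), beside 45.8% of all genes. All 21 starts had H3K4me3, so the 8226 of 11155 starts with H3K4me3 are again the closer background. Bmi1 (25.5) and Cbx8 (24.8) were among the 10 strongest EZH2 peaks anywhere. At both genes all 6 other lists also had a peak: at Bmi1, SUZ12 was 16.5, H3K27me3 9.96, N-MYC 5.74 and H3K4me3 27.02. The catalytic subunits Rnf2 (10.8) and Ring1 (6.69) had no SUZ12 or H3K27me3. In all, 9 of the 21 PRC1 genes had SUZ12 at the start.

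Of the 13 genes of the MYC network, all but Mga had EZH2 (92.3%, 66.7 to 98.6), beside 45.8% of all genes. H3K4me3 was present at 11 of the 13 starts, and over all genes EZH2 was called at 8226 of 11155 such starts. Myc (13.96, 4951 bp), Mycl (8.27, 3676 bp) and Mycn (7.81, 3804 bp) had wide peaks with SUZ12 and H3K27me3 and no N-MYC, and at Mycn none of the 4 lists N-MYC, p300, H3K27ac and H3K4me3 had a peak at the start. Mlxipl (8.34), a glucose-responsive factor, also had SUZ12 and H3K27me3 and no N-MYC, with a narrower peak of 2120 bp. Max, the dimer partner of MYC proteins (6.73), and its repressive partners Mnt (5.72), Mxd1 (4.24), Mxd3 (3.43) and Mxd4 (4.95) had narrow peaks with N-MYC and without SUZ12 or H3K27me3. Mxi1 (4.99), another MAX partner, had N-MYC and also H3K27me3 (3.94).

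All 7 CDK inhibitor genes, brakes of the cell cycle, had EZH2 (a lower bound of 64.6%), beside 45.8% of all genes. H3K4me3 was present at 6 of the 7 starts, and over all genes EZH2 was called at 8226 of 11155 such starts. Cdkn2a, the strongest (14.2), lay under a peak of 10965 bp with SUZ12 (10.97), H3K27me3 (23.6), N-MYC (6.41) and H3K4me3 (24.5). Cdkn2b (4.40), Cdkn1c (7.18) and Cdkn1a (5.30) also had SUZ12 and H3K27me3 but no N-MYC. Cdkn2c (11.2), Cdkn1b (7.77) and Cdkn2d (4.98) had N-MYC and H3K4me3 without SUZ12 or H3K27me3.

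T-cell genes carried EZH2 at 20 of 30 starts (66.7%, 48.8 to 80.8), beside 45.8% of all genes. The share was 46.7% at a fold enrichment of at least 4, beside 40.9% of all genes. At a q-value of at most 1e-05 it was 50%, beside 41.3%. H3K4me3 was present at 23 of the 30 starts, and over all genes EZH2 was called at 8226 of 11155 such starts. Enrichment was mostly low, with a median of 4.88. The strongest were the transcription factors Bcl11b (10.8, 2719 bp), Lef1 (9.99, 3596 bp), Tcf7 (7.89, 4103 bp) and Gata3 (7.22, 1906 bp). Lef1, Gata3 and Runx3 (6.54) also had SUZ12 and H3K27me3, together with N-MYC and H3K4me3; Tcf7 had neither. Among genes of the T-cell receptor complex, fold enrichments were mixed, with Cd3d at 6.62, Cd3g at 5.03, Cd3e at 3.97 and Cd247 at 3.99. Cd4, Cd2, Cd28 and Il7r had H3K4me3 but no EZH2 peak, and Cd8a, Cd8b1, Rag1, Dntt and Ptcra had neither.

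Genes of other lineages had EZH2 at shares whose intervals include the 45.8% of all genes. Among 18 B-cell and myeloid genes 5 had a peak (27.8%, 12.5 to 50.9), of which Pax5 (13.4) and Ebf1 (8.60), factors of B-cell commitment, and Cebpa (12.6) and Cd14 (10.5), myeloid genes, had SUZ12 and H3K27me3; Cebpb (4.99) had N-MYC and H3K4me3 in their place. Among 14 thymic epithelial and stromal genes 4 had a peak (28.6%, 11.7 to 54.6), and all 4 had SUZ12 there: Pdgfra (13.2), Krt8 (8.22), Epcam (5.18) and Col1a1 (4.99). Whether cells other than the lymphoma cells contributed to any of these peaks was not tested.

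Wide peaks made up a small share of the list and a large share of its sequence. The 1093 peaks of at least 3 kb were 5.84% of the list (5.51 to 6.18) and held 6.60 Mb, which is 35.8% of the bases covered. After merging peaks within 3 kb the wide share was 15.6% of regions and 57.8% of bases. Their median fold enrichment was 9.93, against 4.66 for narrower peaks. SUZ12 and H3K27me3 each overlapped 1084 of them (99.2%), against 41.7 and 50.8% of narrower peaks; wide peaks also offer more bases for an overlap, yet p300 met fewer of them than of the narrower peaks (4.94 against 43.0%), as did N-MYC (7.41 against 33.8%). Of the wide peaks 840 reached a gene start, and 909 genes, 4.15% of all tested, had a wide peak there.

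The widest peaks lay over patterning genes, with 1 exception. The first, of 63438 bp (chr2:74652794-74716231), ran from Evx2 through Hoxd13, Hoxd12, Hoxd11, Hoxd10, Hoxd9 and Hoxd8 to Hoxd3, at a fold enrichment of 10.2. The exception came next: a peak of 63100 bp (chr8:123537232-123600331) touched no protein-coding gene and held 36 annotated rRNA genes. Peaks of 39390 bp over Hoxb5 to Hoxb9, of 36506 and 34509 bp over Hoxc, and of 31557 and 28304 bp over Hoxa followed, together with Pax6 (33197 bp) and the zinc finger pair Zic2 and Zic5 (31987 bp). None of the 10 met an N-MYC, p300 or H3K27ac peak.

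Of the 10 strongest peaks only that over Hoxa10, Hoxa11 and Hoxa13 was also among the 10 widest. Sp9 (28.8), Gjc1 (27.4), Bahcc1 (26.3), Tbr1 (26.2), Sox21 (26.2) and Lbx1 (26.1), a muscle precursor factor, had peaks of 7100 to 23492 bp, and Smad6 (23.3), an inhibitor of BMP signals, one of 7098 bp. All had SUZ12 and H3K27me3. The 3973 bp peak of Bmi1 was the narrowest of the 10 strongest, and the only one of them to overlap all 6 other lists besides that of Cbx8.

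Peaks were also clustered. Peaks at most 10 kb apart were joined, which gave 10185 groups: 6148 single peaks, 3485 groups of 2 to 4, and 552 groups of at least 5, which held 3987 peaks (21.3%, 20.7 to 21.9). Groups of at least 5 spanned a median of 11.97 kb, of which 6.25 kb was covered. Of the peaks in them, 91.2% overlapped H3K27me3, 78.9% SUZ12 and 14.4% H3K4me3, and 21.6% lay at a promoter. Single peaks had the opposite profile, with 18.5, 13.5 and 83.7% on the same lists, 82.3% at a promoter and 58.3% with N-MYC. The median fold enrichment of clustered peaks (4.44) was below that of single peaks (5.33), and at a q-value of at most 1e-05 only 252 groups of at least 5 were left, with 12.5% of peaks.

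Most of the largest clusters again held patterning genes. The Hoxc cluster (chr15:102907481-103043445) had 25 peaks that covered 126.4 of 136.0 kb and 9 genes, Hoxc4 to Hoxc13, and no N-MYC, p300, H3K27ac or H3K4me3 peak. The Hoxd cluster had 26 peaks over 89.6 kb and the Hoxa cluster 8 peaks over 66.9 kb. Zdbf2, an imprinted gene, held 24 peaks (20.3 kb), and Zic1 and Zic4, paired genes of the cerebellum, 23 (20.3 kb).

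Single genes with most peaks in the start window or body were Sptbn4, a spectrin of axons (25 peaks, 17.2 kb covered of 91.3 kb), Zdbf2 (24), the heart factors Gata4 (18) and Tbx5 (17), Srcin1 (16), Zic4 (15), Hoxd3 (13), Dab2ip (13), Onecut3 (12) and Pax1 (12). By bases covered, Gata4 came first with 37.6 kb of 72.8 kb, followed by Lhx2 (24.7 kb), Pax6 (24.3 kb), Pax2 (24.02 kb) and Lmx1b (23.9 kb). Pax6 and Pax2 reached this with 2 peaks each, whereas Sptbn4 had 25 short ones. All these genes had SUZ12 and H3K27me3 at the start, and of those with most peaks Sptbn4 (19.1) and Srcin1 (4.78) also had H3K4me3.

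Non-coding genes touched a peak less often than protein-coding genes, with exceptions chosen here after the values were seen. Of 49943 annotated genes of all kinds, 24.7% touched an EZH2 peak. Any overlap with the gene counted, so long genes offer more bases for an overlap than short RNA genes. The share was 47.1% for protein-coding genes, 12.8% for long non-coding RNA genes, 14.95% for tRNA genes (61 of 408), 3.36% for small nucleolar RNA genes and 0.965% for pseudogenes. It was 77.8% for rRNA genes (49 of 63), because all 48 annotated copies on chromosome 8 lay in peaks. That array (chr8:123537232-123629967) had 6 EZH2 peaks over 89.9 of 92.7 kb, 9 SUZ12 peaks over 91.4 kb and 1 H3K27me3 peak over 94.4 kb, and no peak of the other 4 lists.

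A second locus of repeated small RNA genes had the most peaks of any cluster. On chromosome 3 (chr3:96373083-96489236), 38 EZH2 peaks covered 68.5 of 116.2 kb and touched 14 tRNA and 6 snRNA genes, with 45 SUZ12 and 8 H3K27me3 peaks over the same span. Unlike the chromosome 8 array, it also held 10 H3K27ac peaks (up to 19.5), 4 H3K4me3 peaks (up to 22.7), 3 N-MYC and 3 p300 peaks. tRNA genes with EZH2 were found mainly on chromosomes 1 (17 of 37), 3 (16 of 40) and 13 (17 of 105), and on chromosome 6 none of 53 had a peak. Copies in such arrays are close to identical, and how reads with several possible positions were placed is not given in the sources used here, so the copy that gave rise to a peak cannot be told from the list.

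MicroRNA hairpins also carried EZH2. Of the 1005 hairpins given by RefSeq, 75 (7.46%) touched a peak, 65 peaks in all; 30 of the 75 also had SUZ12 or H3K27me3 and 52 had H3K4me3. Below are 8 mature forms, shown because their hairpins stand for both kinds of peak, with the seed (bases 2 to 8) in capitals. They were chosen after the values were seen.
miR-196a-5p: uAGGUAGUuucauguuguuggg
miR-196b-5p: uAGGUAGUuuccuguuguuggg
miR-34b-3p: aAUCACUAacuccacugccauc
miR-34c-3p: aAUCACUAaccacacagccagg
miR-9-5p: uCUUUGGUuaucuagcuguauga
miR-129-5p: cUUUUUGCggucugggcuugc
let-7i-5p: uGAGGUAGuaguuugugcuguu
miR-142a-3p: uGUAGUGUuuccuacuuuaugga

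By seed, miR-196a and miR-196b form one family and the 3p forms of miR-34b and miR-34c another. The miR-196 hairpins lie inside the Hox clusters and were covered by the Hox peaks: Mir196a-2 in Hoxc at 19.4, Mir196b in Hoxa at 14.8, and Mir196a-1 in Hoxb, which gives the same mature miR-196a-5p, at 5.54. Mir34b and Mir34c, targets of p53, shared a peak of 3386 bp at 8.24, and the neural Mir9-1 (13.3) and Mir129-2 (11.1) lay in wide peaks. The other miR-9 hairpins, Mir9-2 (4.81) and Mir9-3 (4.38), had lower values. All of these had SUZ12 and H3K27me3 and none of the other 4 lists. Mirlet7i (9.99) and Mir142 (8.11), a microRNA of blood cells, had p300, H3K27ac and H3K4me3 and neither SUZ12 nor H3K27me3.

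Intergenic peaks were partly at non-coding genes. Of 3782 intergenic peaks, 1192 (31.5%) lay in a non-coding gene or within 1 kb of its start, and 632 (16.7%) lay more than 50 kb from any protein-coding start. The strongest of these far peaks (chr7:79540794-79548060, 14.8) lay 74.0 kb from the start of Rhcg, an ammonium transporter gene. The next lay 79.6 kb from Kcnrg (14.6), 65.0 kb from BC107364 within the chromosome 3 array (13.7), 209.3 kb from Meis2, a Hox cofactor (13.6), and 109.7 kb from Ogfrl1 (12.4). All 5 had SUZ12 and H3K27me3, and those near Kcnrg (24.8) and Ogfrl1 (16.4) had H3K4me3.

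Chromosomes differed in peak density largely as they differ in gene density. The 19 autosomes together had 7.57 peaks per Mb. Chromosome 11 (13.9, 13.3 to 14.6) and chromosome 19 (11.8, 10.96 to 12.7) were highest, and chromosome 16 (5.28, 4.84 to 5.76) and chromosome 18 (5.504, 5.02 to 6.02) lowest, although the intervals of the latter pair overlap. Peaks per Mb followed genes per Mb over the 19 autosomes, with a Spearman coefficient of 0.891 and a Pearson coefficient of 0.821. This is a description, as the chromosomes share 1 library. Per 100 protein-coding genes the ratio of the highest to the lowest autosome was 1.79, against 2.63 per Mb.

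Per 100 protein-coding genes, chromosome 12 (106.8) and chromosome 11 (105.4) were highest and chromosome 7 lowest (59.7, 56.4 to 63.2), against 89.5 for all autosomes. Chromosome 7 carries 417 olfactory and vomeronasal receptor genes, and without such genes its value was 75.1 against 96.3 for all autosomes.

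The X chromosome stood below every autosome. It had 239 peaks, 1.40 per Mb (1.23 to 1.59) and 24.7 per 100 genes (21.7 to 28.1), and 131 of its 966 genes (13.6%) had a peak at the start, against 47.8% of autosomal genes. Per gene, the X to autosome ratio of peaks was 0.277 in the EZH2 list. In the other lists it was 0.243 (p300), 0.244 (SUZ12), 0.289 (H3K27ac), 0.293 (H3K27me3), 0.348 (N-MYC) and 0.606 (H3K4me3), so all lists were lower on X and H3K4me3 least so. Per Mb the EZH2 ratio was 0.185 by peaks and 0.113 by bases covered. The number of X copies in the cells is not given, and its part in these values was not tested. Strong X peaks lay at Tsc22d3 (10.2), Nexmif (9.99) and Sowahd (9.40); these genes were singled out after their values were seen. The Y chromosome had 3 peaks, none at a start of its 256 annotated protein-coding genes.

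**Figure D4:**
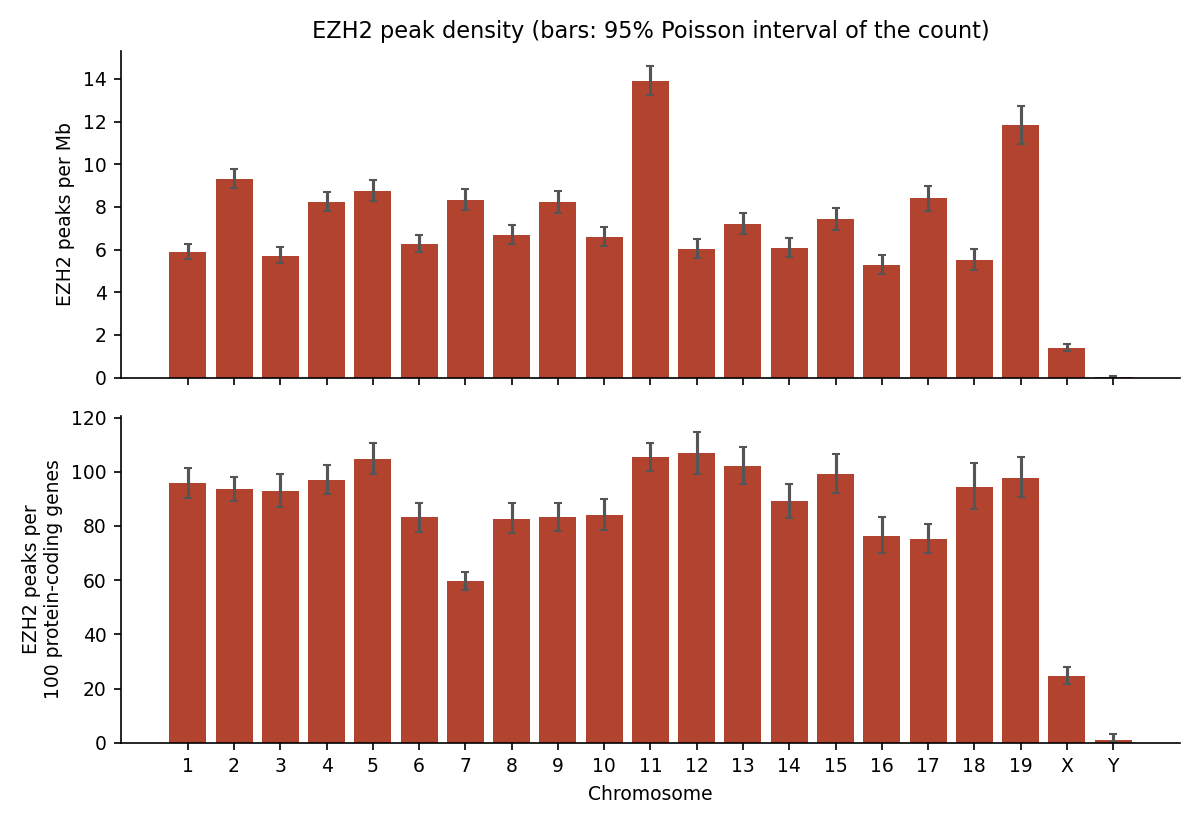
EZH2 peaks per Mb of annotated span (top) and per 100 protein-coding genes (bottom) on each chromosome, with 95% Poisson intervals of the peak count. Chromosomes 11 and 19 have the highest bars per Mb, chromosomes 12 and 11 per 100 genes, and X has the lowest bar apart from Y in both panels.

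Promoters with EZH2 were rich in CG dinucleotides. In 21263 promoter windows of 300 bases, from 17492 genes, the median count was 24 (quartiles 17 and 32) in the 9496 with an EZH2 peak within 1 kb of the start and 5 (2 and 11) in the 11767 without. The share with EZH2 went up with the count, from 3.81% of windows with 0 to 4 CG through 47.0% at 10 to 14 to 89.4% at 30 or more. Among windows with H3K4me3 the same steps were 28.5, 59.0 and 91.5%, and among those without H3K4me3 they were 1.74, 28.5 and 77.4%. EZH2 thus followed CG count within both groups. For SUZ12 the share was 2.14% in the lowest bin, 16.4% at 10 to 14 and 23.3% in the highest.

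By family, ribosomal protein promoters had a median of 21 CG, with 22.5 where EZH2 had a peak and 13 where it had none, and olfactory receptor promoters had a median of 1. Hox promoters went the other way, with a median of 14 CG in the 21 windows with EZH2 and 26 in the 3 without. Within the T-cell list, the windows with EZH2 had a median of 8 CG and those without 5, far below the 24 of all EZH2 promoters, as the window of Bcl11b shows.

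**Figure D5:**
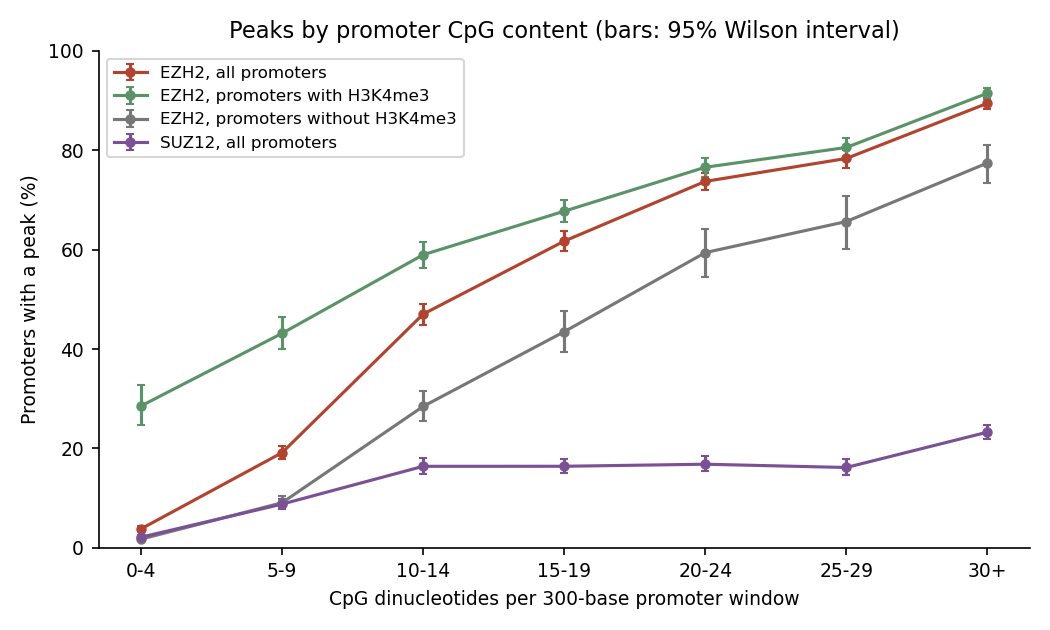
Percentage of 300-base promoter windows with a peak within 1 kb of the start, by the number of CG dinucleotides in the window, with 95% Wilson intervals. The EZH2 lines climb over all bins, with and without H3K4me3, from 3.81 to 89.4% over all windows, while SUZ12 is between 16.2 and 16.8% from 10 to 29 CG.

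A pair of promoter motifs was counted in the same windows. The E-box CACGTG, a palindrome read once for both strands, was present in 7.84% of all windows, in 10.2% of those with EZH2 and in 5.91% of those without. Among windows with H3K4me3 the shares were 10.8% with EZH2 and 10.3% without, within each other's intervals (10.2 to 11.6 and 9.24 to 11.4). The TATA-box letters TATAAA, on either strand, were present in 12.6% of all windows, in 6.00% with EZH2 and in 17.9% without. Matches of the 2 motifs cannot overlap each other, and a match is not evidence of binding.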

How the data were processed

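Peak lists from 7 immunoprecipitations of 1 library each were used; the 2 inputs were not. FastQC, Bowtie2, SAMtools, MACS2, deepTools and the build mm10 (GRCm38) are named in the submitters' processing notes, without versions or roles. Options, pooling, use of the inputs and treatment of reads with several positions are not given in the sources used here. The files have no header, and columns were identified from their layout and values. Fold enrichment is a linear ratio as deposited by the authors. Columns of −log10 p-value and −log10 q-value were deposited by the authors, and the smallest −log10 q of EZH2 peaks was 2.00. The deposited score column entered no result.

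Genes came from RefSeq GRCm38.p6 (21887 protein-coding genes). Starts with strand were given for 17492 genes; for the other 4395 both gene ends were read, so a far end can count as a start. Peaks were joined to starts within 1 kb by an overlap of at least 1 bp, and each summit was assigned to 1 compartment. Where several peaks reached a start, the highest fold enrichment and the largest width among them were taken. Both values can therefore come from different peaks. Annotated span, from the first to the last gene of a chromosome, stood in for chromosome length. The 40 gene lists, the members and the tests were chosen with earlier results of these data known. Named genes were, by rule, the 2 strongest members of each list, up to 5 members on the smaller side of lists of at most 30, all members of the 7 chromatin, cell-cycle and lineage lists, and the widest, strongest and most clustered loci. Some genes that the rule names are not reported here. Python 3.11.15 with numpy 2.4.6, pandas 2.3.3, scipy 1.17.1 and matplotlib 3.10.9 was used. The interval and overlap steps were tested on simulated data. Alternatives covered the start window, thresholds, merging, cluster gaps and gene sets.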

Additional observations from a re-analysis of the deposited data

How the results depend on the processing

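No paired analysis was possible because each antibody had 1 library. Depth is unknown and limits every absence of a peak. Of 64 alternative values for 14 results, 22 stayed inside the counting interval or within 1.5 times of a count, and 42 did not; the intervals are narrow, and the alternatives redefine the quantity by construction. The share of peaks at promoters, in bodies and between genes was 44.0, 33.5 and 22.6% with a 500 bp window, 70.5, 13.3 and 16.3% with 2500 bp, 62.4, 24.7 and 12.9% with all annotated genes, 63.6, 19.4 and 17.0% at a q-value of at most 1e-05, 62.9, 19.5 and 17.7% at a fold enrichment of at least 4, 75.4, 13.5 and 11.1% after merging peaks within 3 kb, and 47.0, 16.3 and 36.7% without genes that lack a stranded start. The share of genes with a peak was 44.4% (500 bp), 47.1% (2500 bp), 43.8% (summit in the window), 41.3% (q-value) and 40.9% (fold enrichment). Wide peaks were 9.86% of peaks and 45.7% of bases from 2 kb, 2.21 and 21.8% from 5 kb, 15.6 and 57.8% after merging, and 7.81 and 39.1% at the stricter q-value. Clusters of at least 5 numbered 252 at that q-value, against 552, and held 12.5% of peaks, against 18.2% with a 5 kb gap and 31.7% with a 25 kb gap. By bases covered in place of peaks, the ratio to autosomes was 0.113 per Mb for X (0.185 by peaks) and 0.630 per gene for chromosome 7 (0.667). With a peak over the 300-base window itself, the median CG count was 25 with EZH2 and 6 without.

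Of 239 list shares under alternatives, 237 stayed on the same side of the share over all genes; Hox and T-box genes changed side when the summit had to lie in the window. Leaving out genes without a stranded start and leaving out the arrays on chromosomes 8 and 3 were chosen after seeing the data.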

Other observations

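Antigen receptor segments were almost without EZH2. Segments of T-cell receptor and immunoglobulin genes were not counted apart. A peak touched 1 of 394 V segments and 4 of 82 J segments, beside 24.7% of genes of all kinds. H3K27ac, a longer list of 87072 peaks, touched 53 V and 57 J segments, and p300 touched 10 and 20. Transcribed pseudogenes held EZH2 more often (7.63%) than other pseudogenes (0.965%).

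The 3 Y peaks were 324, 216 and 276 bp wide, at fold enrichments of 3.51, 2.09 and 2.40, and met no peak of the other lists. On X, the median EZH2 peak width was 347 bp, against 506 bp on the autosomes, and 6 of 239 peaks were at least 3 kb wide.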
